A study of Bos taurus with 32 samples.

Results

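The MHC class I and II genes described here were 18 of the 15208 non-control probes of a bovine oligonucleotide array. They were taken by name: the gene name began with BOLA or was B2M, or the description held the words major histocompatibility complex or MHC class. Letter case was ignored, which added JSP.1 and MHCLA2 to the 16 probes found with case as written. No probe was named CD74, the invariant chain of class II, and a class I probe named MGC134453 fell outside the wording. There were 5 probes for class I or class I-like genes and 13 for class II. The RefSeq table for ARS-UCD2.0 matched 9 of them by accession, and there the BOLA-DQA probe stands under BOLA-DQA5, the BLA-DQB probe under BOLA-DQB1 and the MHCLA2 probe under RAET1G. No genome build was named for the array, so no positions are given.

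Endometrium came from 4 repeat breeder (RB) cows, which showed estrus but failed to conceive after repeated inseminations, and from 4 non-RB cows, called normally fertile in the labels. All were non-lactating Japanese Black cows, a beef breed, and Day 15 of the cycle was the day of slaughter. The pregnancy of each non-RB cow had been ended with prostaglandin and followed by further normal cycles. From each cow, caruncles (CAR), the aglandular areas where the placenta attaches, and intercaruncular endometrium (ICAR), which holds the glands, were dissected from the horn ipsilateral to the corpus luteum and from the contralateral horn. Each of the 8 groups thus held 4 arrays, 32 in all, with 1 sample per array. Arrays with the same number within RB or within non-RB were treated as coming from 1 cow, although the methods do not say so.

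MHC class I molecules are a polymorphic heavy chain joined to beta-2-microglobulin (B2M), sit on most nucleated cells and present peptides from inside the cell to CD8 T cells. Class II molecules are alpha and beta chain pairs (DR and DQ, and DY in ruminants) on macrophages, dendritic cells and B cells, and present peptides from endosomes to CD4 T cells. DM loads those peptides and DO restrains DM. In cattle the classical class I and the DQ genes vary between haplotypes in number as well as in sequence. In the ruminant uterus, MHC class I is known for its rise under interferon tau from the conceptus. The cows here were cycling.

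Levels are given as log2 intensity relative to the 75th percentile of the same array, so that 0 is that percentile. A level can be compared between arrays for 1 probe, but not between probes, since probes differ in how well they hybridize. The 75th percentile lay between 1165 and 4857 intensity units, and between 74.3% and 85.8% of probes were well above background. Before the groups were compared, arrays were checked against their numbers with 18 probes outside the MHC that split the 32 arrays by a gap of 2.10 to 6.01 log2 units with at least 3 arrays on each side. On 28 arrays the pattern went with the labelled number. The array labelled RB 1 ICAR contralateral shared 18 of 18 probes with 3 arrays of non-RB 2, against at most 14 with its own number. The array labelled non-RB 2 ICAR contralateral shared 18 of 18 with the CAR arrays of non-RB 1 and 12 with its own number. The arrays labelled non-RB 1 ICAR ipsilateral and non-RB 1 ICAR contralateral shared 18 and 17 of 18 with the other 3 arrays of RB 1. These 4 arrays were kept under their labels, and several of the results that rest on them are given with and without them.

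The MHC probes ranged from no detection to well above background on every array. B2M, BOLA, LOC533051, BOLA-DRA, BoLA-DRB3, BOLA-DQA2, BLA-DQB, BOLA-DMA, BOLA-DMB and BOLA-DOB were well above background on all 32 arrays. BOLA-DQA1 was so on 31, JSP.1 on 29, BOLA-DYB on 26 and LOC538700 on 23. BOLA-DQA and BOLA-DQB were so on 4 arrays each, and BOLA-DYA and MHCLA2 on none. Dim probes are given a lowest signal common to many probes of the array (862 to 1945 probes), and values there have no order. BOLA-DYA was at that signal on 25 arrays, MHCLA2 on 31, BOLA-DQA on 26 and BOLA-DQB on 21. The 14 other members passed the filter on dim probes in every comparison. In tissue samples, fewer cells of a type and less RNA per cell cannot be told apart.

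**Figure D1:**
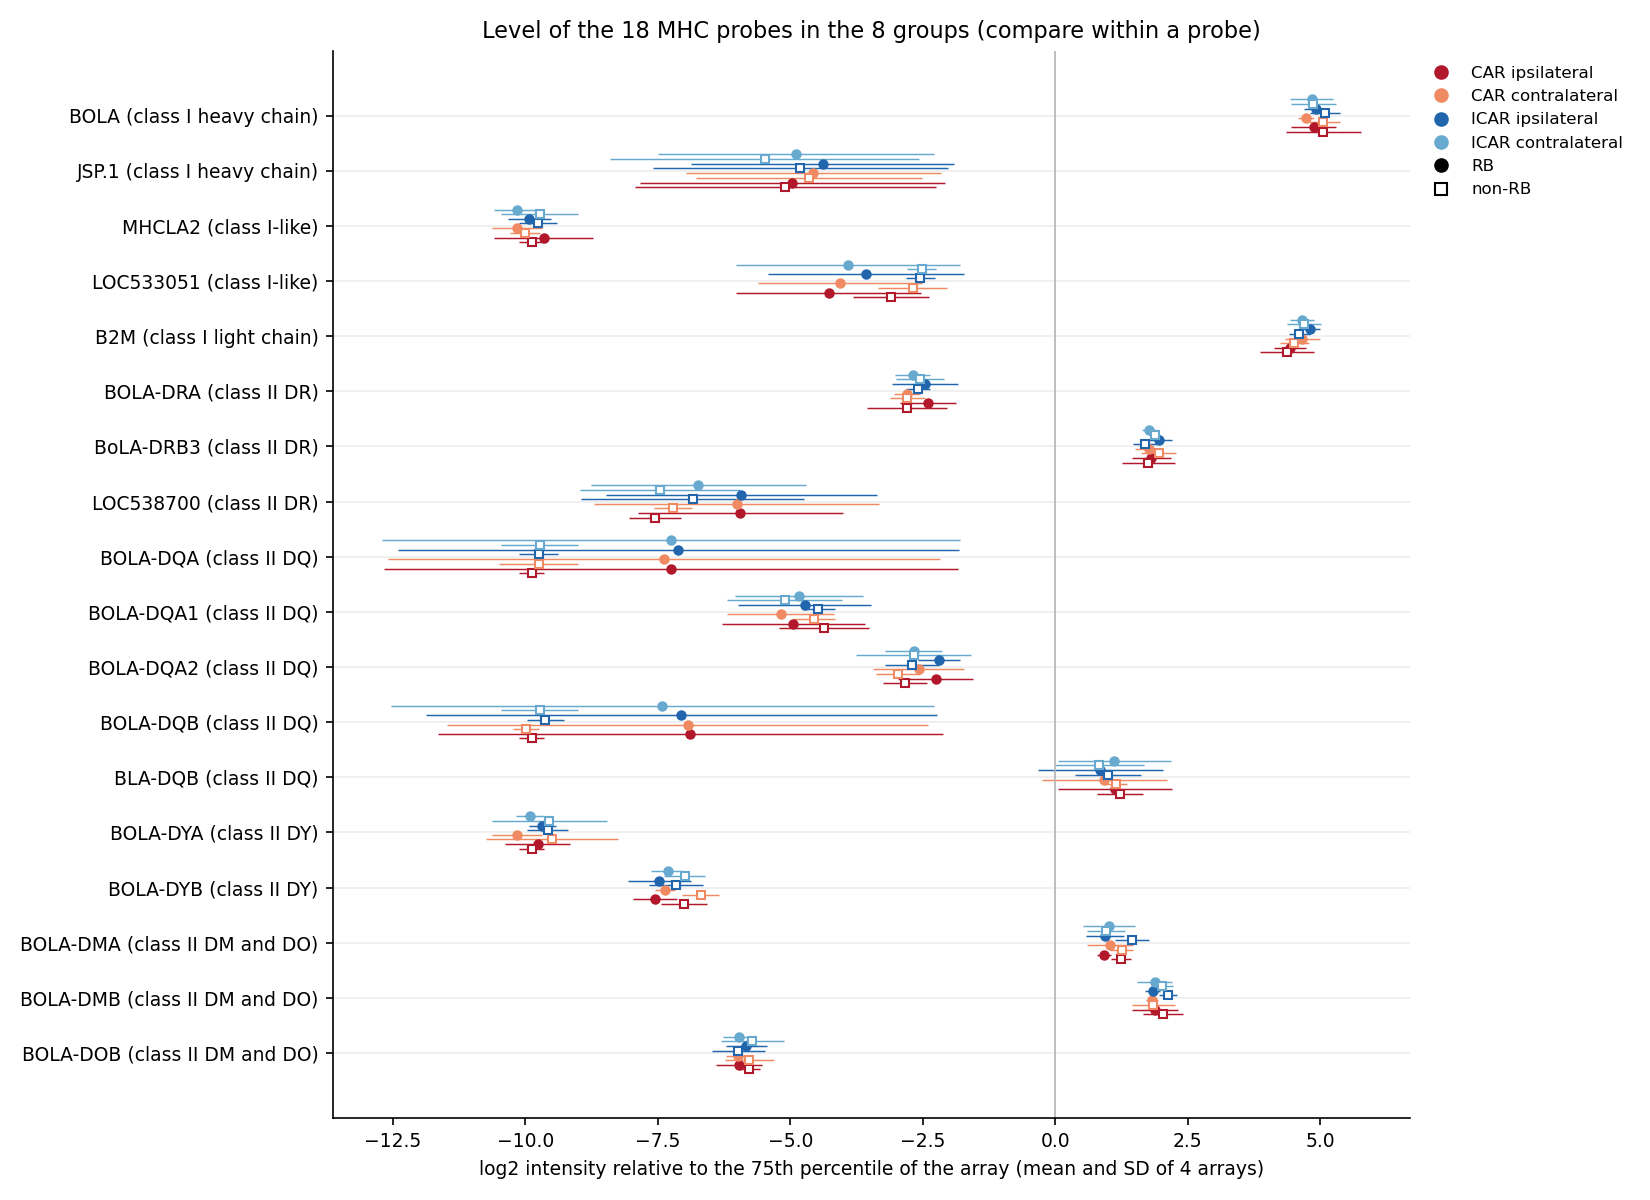
Levels of the 18 MHC probes in the 8 groups, as log2 intensity over the 75th percentile of its array (x axis), with 1 row per probe grouped by role. Symbols are means and bars are SD over 4 arrays, colors mark compartment and horn, and filled circles are RB and open squares non-RB cows. Bars are long for JSP.1 and LOC538700, and for BOLA-DQA and BOLA-DQB in the RB groups, and levels are to be compared within a row.

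Among class I genes, BOLA and B2M varied little between the 8 groups. BOLA, a classical class I heavy chain, had group means between 4.73 ± 0.15 (SD, n = 4) in contralateral CAR of RB cows and 5.09 ± 0.28 in ipsilateral ICAR of non-RB cows. B2M, the light chain, had group means between 4.37 ± 0.50 in ipsilateral CAR of non-RB cows and 4.80 ± 0.19 in ipsilateral ICAR of RB cows. Over the 32 arrays BOLA ran from 4.05 to 5.72 with a median of 5.01, and B2M from 3.85 to 5.05 with a median of 4.58. The group means of each spanned 0.36 and 0.43 log2 units, less than the SD of the widest group, which is not a test of their order. For B2M the mean was higher in ICAR than in CAR for each status and horn, though barely so contralaterally in RB cows. The compartments are compared below.

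JSP.1, a class I heavy chain probe, took a high or a low level by cow. Its 60 bases from the array design, shown because the level followed the cow, were as follows, 5′ to 3′.
JSP.1: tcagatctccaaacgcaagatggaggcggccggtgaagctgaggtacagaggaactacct
The 4 arrays of RB 3 lay at -1.24, -1.08, -0.98 and -1.33 (ipsilateral CAR, contralateral CAR, ipsilateral ICAR, contralateral ICAR, the order used below). The 4 arrays of non-RB 3 lay at -1.01, -1.48, -0.64 and -1.52. The other 24 arrays lay between -8.02 and -4.12, with a gap of 2.60 between the 2 sets. The high arrays came from 1 RB and 1 non-RB cow, so RB and non-RB arrays overlapped in every compartment.

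LOC533051, annotated as similar to human MICB, a stress-induced class I-like ligand of the NKG2D receptor, was low in 1 cow. The first 30 bases of its probe were ccaaagtatctacacttcttgaatcattca. RB 3 lay at -6.77, -6.36, -6.33 and -7.06, still well above background on each array. The other 28 arrays lay between -4.16 and -1.74, a gap of 2.17. MHCLA2, a class I-like gene of the RAET1 family, was not well above background on any array.

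Among DR genes, DRA and DRB3, the main DR pair of cattle, varied little between the 8 groups. BoLA-DRB3 lay between 1.21 and 2.32 with a median of 1.84, and its group means between 1.69 ± 0.22 in ipsilateral ICAR of non-RB cows and 1.96 ± 0.24 in ipsilateral ICAR of RB cows. BOLA-DRA lay between -3.75 and -1.57 with a median of -2.71, and its group means spanned 0.39 log2 units. For both, these spans were smaller than the SD of the widest group, 0.75 for BOLA-DRA and 0.50 for BoLA-DRB3.

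LOC538700, annotated as similar to human DRB5, a DR beta chain, lay at a high level on 9 of 32 arrays. The first 30 bases of its probe were atccacctcaggagtaagaaaggacaccct. RB 4 lay at -4.22, -3.65, -3.40 and -3.70. RB 1 lay at -4.34, -3.72 and -4.05 on its first 3 arrays, and at -7.82 on the array labelled ICAR contralateral. Non-RB 1 lay at -7.16 and -7.05 in CAR, and at -3.71 and -5.31 on the arrays labelled ICAR. The other arrays lay between -8.52 and -6.82. The exceptions within RB 1 and non-RB 1 were thus 3 of the 4 arrays whose pattern went with another number.

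The DQ genes gave the widest splits. Their probes are shown by the first 30 bases of 60, 5′ to 3′, because BOLA-DQA and BOLA-DQB were detected in 1 cow and BLA-DQB was highest there.
BOLA-DQA: agcctaattctccaatggcctttagctaat
BOLA-DQB: tccagagcagactgtgggagagaagcacat
BLA-DQB: tctactcagatcccaaaagcttcctttgct
BOLA-DQA, a DQ alpha chain, lay at 0.86, 0.42, 0.82 and 0.91 in RB 2. On the other 28 arrays it was not well above background, with values from -10.37 to -8.66, whereas the lowest level among probes well above background on those arrays was -8.07 to -6.36. Against the mean of that limit over the 28 arrays (-7.58), RB 2 was on average at least 322-fold higher (mean 0.75 ± 0.23, SD, n = 4 arrays of 1 cow). BOLA-DQB, a DQ beta chain, lay at 0.22, -0.22, 0.16 and 0.26 in RB 2 and between -10.24 and -8.17 elsewhere. Against the same mean limit it was on average at least 206-fold higher in RB 2. All arrays of RB 2 were on slide 2 together with those of RB 3, in which neither probe was well above background.

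BLA-DQB, a second DQ beta probe, was detected in all cows but was highest in RB 2, at 2.55, 2.29, 2.21 and 2.52. The other arrays lay between -0.36 and 1.65. RB 1 and RB 4 were low, with means over their arrays of 0.11 ± 0.33 and 0.10 ± 0.19 (SD, n = 4 arrays). The arrays labelled non-RB 1 lay at 1.65 and 1.14 in CAR and at 0.08 and -0.36 in ICAR, where they were those that went with RB 1.

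BOLA-DQA1 and BOLA-DQA2, both DQ alpha chains, were graded between cows. BOLA-DQA1 averaged -3.40 ± 0.43 in RB 2 and -6.18 ± 0.26 in RB 3, and the other cows averaged -5.18 to -4.56. BOLA-DQA2 averaged -3.26 ± 0.46 in RB 2 and -1.90 ± 0.37 in RB 4, so RB 2 was the highest cow for BOLA-DQA1 and the lowest for BOLA-DQA2, where non-RB 3 and non-RB 4 lay close to it (-3.20 and -3.19). There were 153 pairs of member probes, aligned without gaps. Among pairs whose best alignment covered at least 30 bases, the probes of DQA1 and DRA, alpha chains of sister molecules, were the most alike. They had the same base at 23 of 38 aligned positions (60.5%), in capitals here.
BOLA-DQA1: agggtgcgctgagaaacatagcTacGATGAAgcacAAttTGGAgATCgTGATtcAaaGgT
BOLA-DRA: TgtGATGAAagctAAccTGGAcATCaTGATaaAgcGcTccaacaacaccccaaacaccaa
No pair of member probes shared more than 11 bases in a run. How far a probe also bound other MHC transcripts was not tested.

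**Figure D2:**
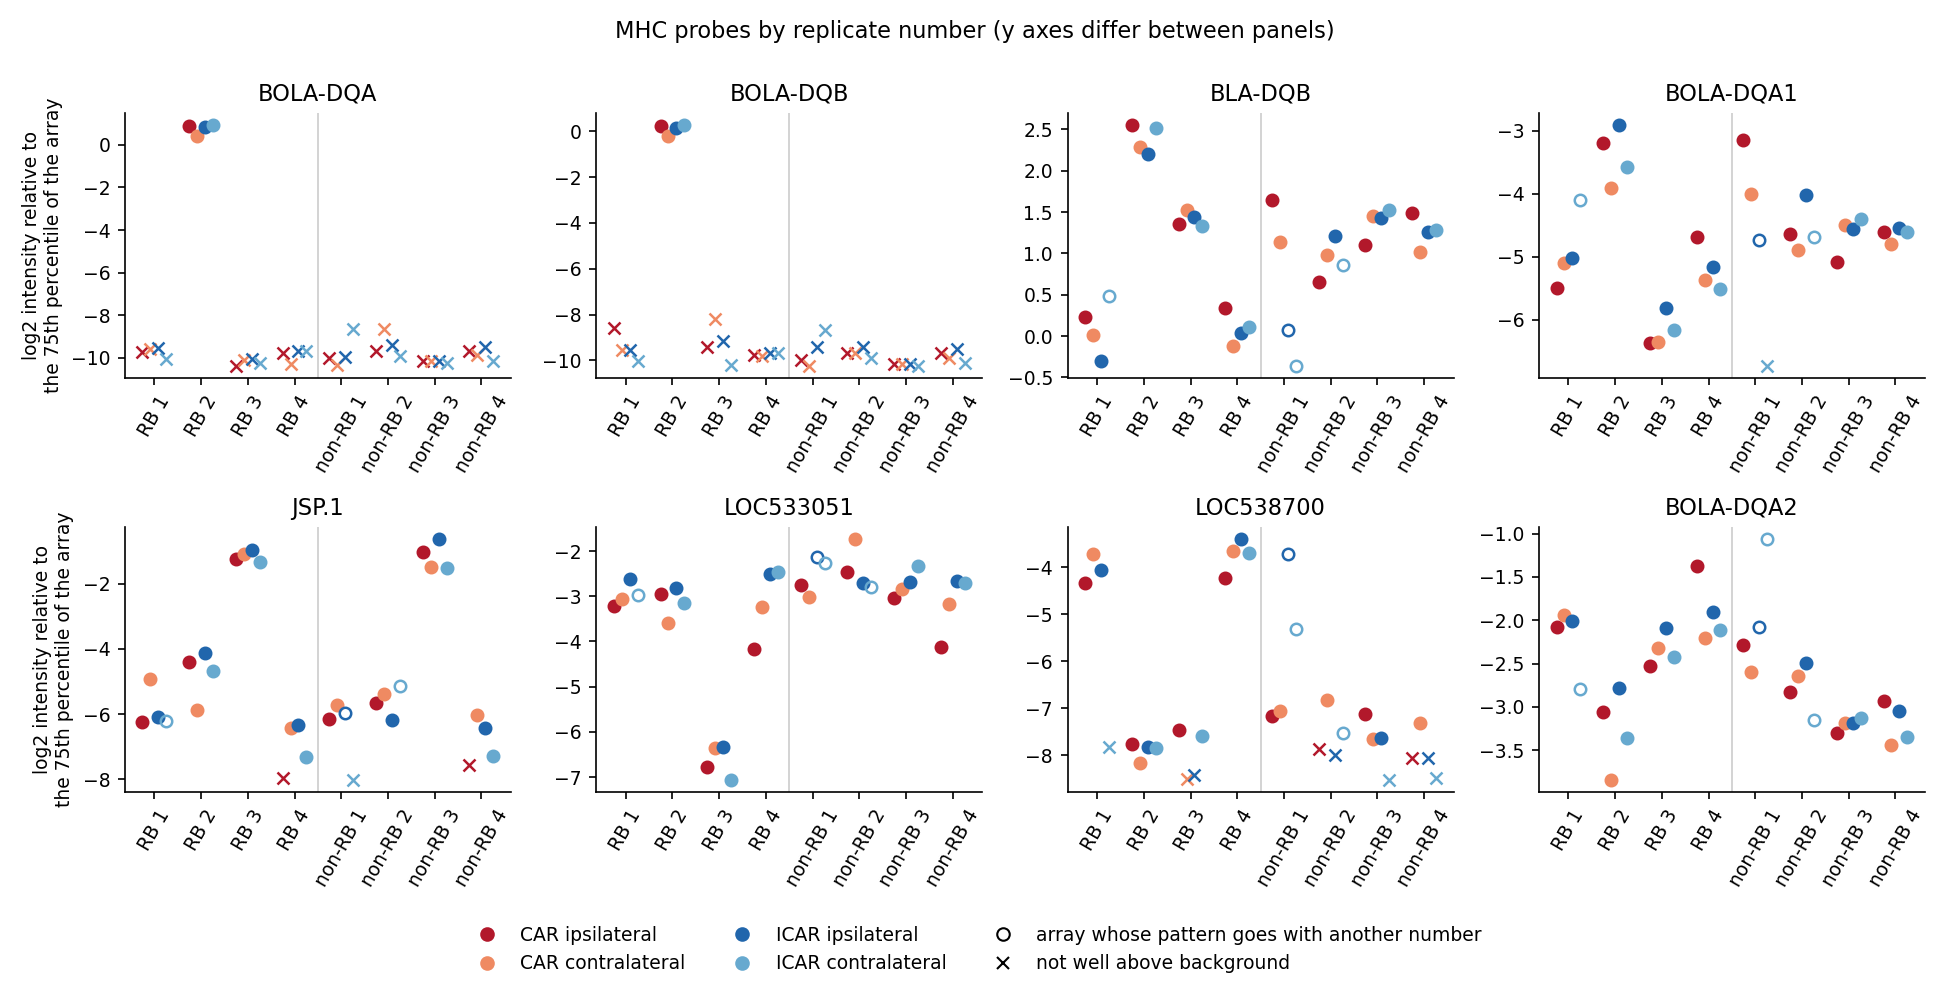
Level of 8 MHC probes on each of the 32 arrays, as log2 intensity over the 75th percentile of its array (y axes differ), by replicate number (x axis). Colors mark compartment and horn, crosses mark arrays on which the probe was not well above background, and open circles mark the 4 arrays whose pattern outside the MHC went with another number. BOLA-DQA and BOLA-DQB stand out in RB 2, JSP.1 in RB 3 and non-RB 3, and LOC533051 is low in RB 3.

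The remaining class II genes did not split. BOLA-DMA, the DM alpha chain, lay between 0.49 and 1.87 and BOLA-DMB, the DM beta chain, between 1.29 and 2.42. BOLA-DOB, the DO beta chain, lay between -6.60 and -4.84. BOLA-DYB, the DY beta chain, lay between -8.09 and -6.38, close to the lowest level that could be called above background. BOLA-DYA, its alpha chain partner, was not well above background on any array, so nothing can be said of its order between groups.

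Splits of this size were rare on the array. Among the 14661 probes with a value on every array, 22 (0.15%) had a gap over 2 log2 units with at least 3 arrays on each side. Of the 18 MHC probes 4 did (22.2%), namely JSP.1, LOC533051, BOLA-DQA and BOLA-DQB. This is a description of these 32 arrays, which came from 8 cows. Whether the cows carried different alleles at these probes was not tested.

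The share of the variance within the groups that lay between cows put the same in numbers. Over the 12919 probes tested on 32 arrays the median share was 30.4%, with a 90th percentile of 60.4%, and over the 14 MHC probes tested the median was 45.4%. The jackknife error of the latter over cows was 22.5 percentage points, more than the distance between the medians. JSP.1 had 93.3%, LOC533051 88.4%, BLA-DQB 79.7%, LOC538700 69.3%, BOLA-DQA2 67.9% and BOLA-DQA1 54.6%. B2M had 40.4%, BOLA 29.4% and BOLA-DRA 29.6%, and BoLA-DRB3 had 0%. Without the 4 arrays that went with another number, LOC538700 rose to 92.6%, BLA-DQB to 91.8%, BOLA-DQA1 to 86.8% and BOLA to 45.6%, B2M fell to 21.4%, BOLA-DOB from 30.5% to 15.2% and BOLA-DRA to 20.3%, and the median of the MHC probes was 42.3%. Without RB 3 the share of LOC533051 was 5.06%, and without RB 2 that of BOLA-DQA1 was 7.59%, so these 2 shares rest on 1 cow each. BOLA-DQA1 also fell to 30.7% without RB 3, and BLA-DQB to 56.3% without RB 2. The share of BOLA was 7.21% without RB 3 and 54.9% without non-RB 1, that of BOLA-DRA 11.3% without non-RB 1, and that of BOLA-DOB 8.94% without RB 2 and 57.3% without non-RB 2. The shares of JSP.1 stayed between 88.5% and 95.5% under the alternatives run.

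**Figure D3:**
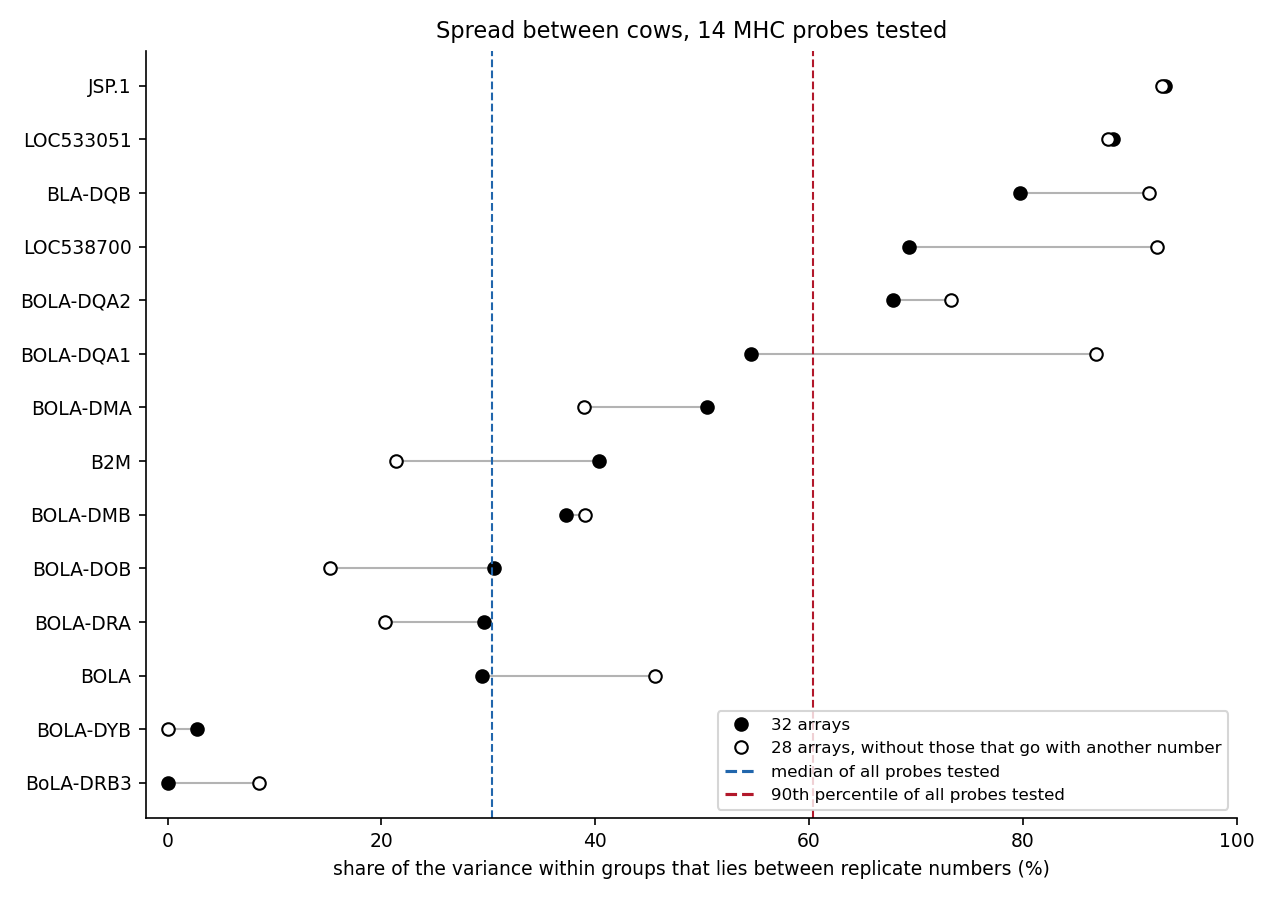
Share of the variance within the 8 groups that lay between replicate numbers (x axis, percent) for the 14 MHC probes tested. Filled points are from 32 arrays and open points from the 28 arrays without those that went with another number. Dashed lines are the median (30.4%) and the 90th percentile (60.4%) of all probes tested, and 5 probes, JSP.1, LOC533051, BLA-DQB, LOC538700 and BOLA-DQA2, lie above the latter on 32 arrays.

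Several members varied together or in opposite directions. After the mean of each group was removed, LOC538700 and BLA-DQB had a Pearson correlation of -0.85, BOLA-DQA2 and BLA-DQB of -0.73, and LOC538700 and BOLA-DQA2 of 0.67. JSP.1 had a correlation of -0.58 with BOLA and of -0.56 with LOC533051. These are descriptions over 32 arrays that share 8 cows, and the splits above carry much of them.

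The first question of the study was whether RB cows differ from non-RB cows in each compartment, and it was asked here of each MHC gene with limma over all probes. No MHC probe differed at an adjusted p under 0.05 in ipsilateral CAR, ipsilateral ICAR, contralateral CAR, contralateral ICAR or the whole uterus, where the arrays of each cow were averaged, and the share of all probes called was 0% in each. At an unadjusted p under 0.05, 0 of 14 MHC probes passed in ipsilateral CAR, where 3.41% of all 13080 probes tested did, and 0 of 14 in ipsilateral ICAR, where 3.69% did. In contralateral CAR 1 of 14 passed (1.74% of all probes), in contralateral ICAR 0 of 14 (1.6%) and in the whole uterus 1 of 14 (2.21%).

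The probe that passed was BOLA-DYB, a chain of the ruminant DY molecule. In contralateral CAR it lay at -7.25, -7.23, -7.64 and -7.32 in RB 1 to 4 and at -6.38, -6.47, -6.78 and -7.14 in non-RB 1 to 4. The highest RB value was thus below the lowest non-RB value, as was so for 0.442% of all probes in that direction. The log2 difference was -0.67 (SE 0.24), 1.59-fold, with an exact permutation p of 0.0286, the smallest that 4 against 4 can give, and limma's adjusted p was 1.0. In contralateral CAR the median difference was -0.23 over the 7 macrophage markers tested and 1.095 over the 2 B and plasma cell markers, and their part in this difference was not tested. Over the whole uterus the cow means of BOLA-DYB were -7.29, -7.49, -7.36 and -7.57 in RB and -6.57, -7.19, -6.94 and -7.14 in non-RB cows, without overlap, as for 0.534% of all probes in that direction. These means include the 4 arrays that went with another number, among them non-RB 1 ICAR at -6.79 (ipsilateral) and -6.43 (contralateral), which went with RB 1. The lack of overlap is given on all arrays only. The difference was -0.46 (SE 0.18, exact permutation p 0.0286, adjusted p 1.0). With normexp background correction the difference in contralateral CAR was -0.15 (SE 0.25), and without RB 3 or without non-RB 1 its unadjusted p was 0.056 and 0.057. BOLA-DYB was not well above background on 6 of 32 arrays.

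The largest differences belonged to the probes that split by cow, and RB and non-RB arrays overlapped for each. LOC538700 was higher in RB cows by 1.61 log2 units in ipsilateral CAR (SE 0.80, exact permutation p 0.286), with values of -4.34, -7.77, -7.46 and -4.22 in RB and -7.16, -7.87, -7.13 and -8.06 in non-RB cows. In contralateral CAR its difference was 1.198 (SE 1.12), and with the slide or the scan session as a block 3.66 (SE 0.29, adjusted p 0.473) and 3.62 (SE 0.24, adjusted p 0.058). In ipsilateral and contralateral ICAR its difference was 0.92 (SE 1.34) and 0.72, and without the 4 arrays that went with another number 1.97 (SE 1.19) and 2.12 (SE 1.29). With the slide as a block they were 4.08 (SE 0.35, adjusted p 0.127) and 2.26 (SE 1.22). In contralateral CAR and in both horns of ICAR, slide 2 held only RB 2 and RB 3, both low for LOC538700. With the slide as a block these 2 cows do not enter the estimates. The slide-block differences rest on slides 6 and 8, where RB 4 and RB 1 each lay beside a non-RB array. Their SE takes in RB 2 and RB 3 only through the spread between these 2 cows on slide 2. It leaves out how far both lay below RB 1 and RB 4. LOC533051 differed by -1.18 in ipsilateral CAR, -1.02 in ipsilateral ICAR, -1.37 in contralateral CAR and -1.39 in contralateral ICAR. Its difference over the whole uterus was -1.24 (SE 0.74, exact permutation p 0.114), and without RB 3 it was -0.35 (SE 0.22).

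Of the other members, BOLA differed by -0.17 (SE 0.21) and B2M by 0.09 (SE 0.19) over the whole uterus, BOLA-DRA by 0.10 (SE 0.23) and BoLA-DRB3 by 0.01 (SE 0.16). BOLA-DMA, lower in RB cows by 0.24 over the whole uterus (SE 0.20), was lower by 0.50 in ipsilateral ICAR (SE 0.26, exact permutation p 0.114) and by 0.31 in ipsilateral CAR (SE 0.23, exact permutation p 0.0857). BOLA-DMB was lower in RB cows by 0.29 in ipsilateral ICAR (SE 0.19, exact permutation p 0.0571). With the methods' unmoderated test the unadjusted p was 0.035 for BOLA-DMA in ipsilateral CAR and 0.037 for BOLA-DMB in ipsilateral ICAR, each far from the threshold after adjustment (1.0 and 0.876). BOLA-DQA2 differed by 0.37 (SE 0.35) and BOLA-DQA1 by -0.30 (SE 0.48). Over the 14 MHC probes tested the median log2 difference was -0.12 in ipsilateral CAR, -0.01 in ipsilateral ICAR, -0.20 in contralateral CAR, -0.03 in contralateral ICAR and -0.09 over the whole uterus. The medians over all probes were 0.02, -0.03, 0.00, 0.02 and 0.01 in the same order. Of the 14, 6 were above 0 and 8 below over the whole uterus.

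**Figure D4:**
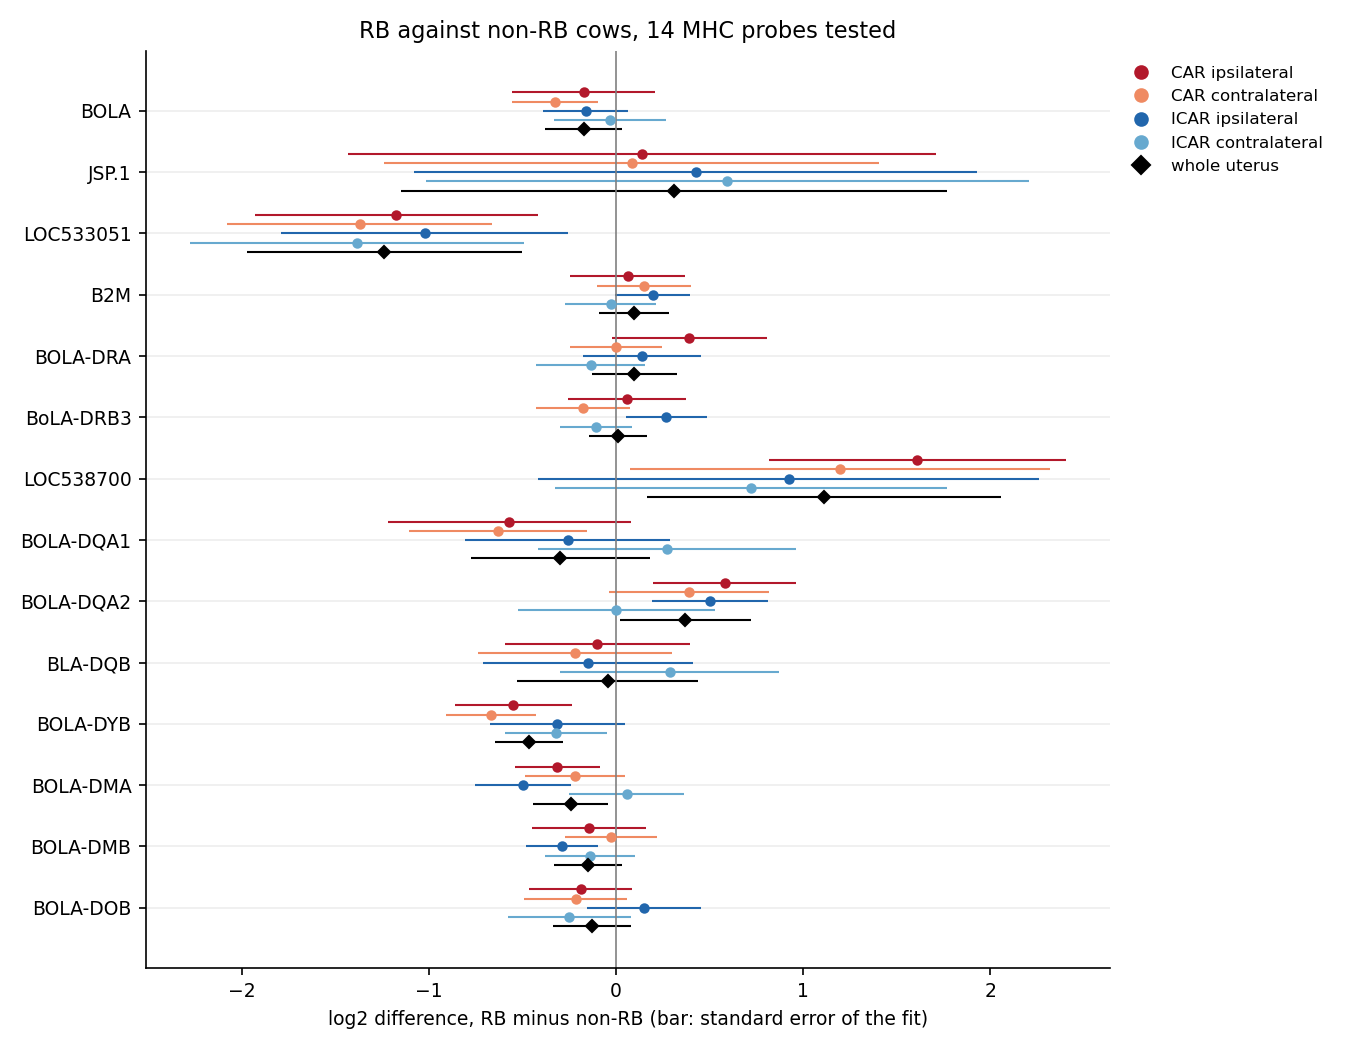
Log2 difference between RB and non-RB cows (x axis, RB minus non-RB) for the 14 MHC probes tested, in each compartment and horn and over the whole uterus. Points are estimates and bars standard errors of the fit. The points of LOC533051, BOLA-DYB, BOLA and BOLA-DMB lie below 0 in all 5 comparisons. Those of LOC538700, JSP.1 and BOLA-DQA2 lie above 0 in all 5, though barely so for BOLA-DQA2 in contralateral ICAR. The bars of JSP.1 are long, and no difference reached an adjusted p under 0.05.

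Whether the RB effect differed between compartments or horns was tested on differences within each cow as labelled. No MHC probe passed at an adjusted p under 0.05 between CAR and ICAR or between the horns, and 0% of all probes did in each. None of the 14 passed at an unadjusted p under 0.05 either, against 0.867% of all probes between compartments and 6.07% between horns. The median of the RB effect in CAR minus that in ICAR was -0.10 over the MHC probes and 0.00 over all probes, and between horns it was 0.07 and -0.01. Without the 4 arrays that went with another number, LOC538700 had an RB effect lower in CAR than in ICAR by 0.65 log2 units (adjusted p 0.981), against a value of 0.58 on all arrays.

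CAR and ICAR were compared over the 32 arrays with group and horn in the model. No MHC probe differed at an adjusted p under 0.05, whereas 174 of 12919 probes did (1.35%), 50 higher and 124 lower in CAR. That count was not stable, at 0 without the 4 arrays that went with another number or without any 1 cow other than RB 3 (915) or non-RB 2 (717). With the cow as a block 1086 probes did, and still no MHC probe. None of the 14 passed at an unadjusted p under 0.05, against 16.2% of all probes, whereas with the cow as a block 2 did, B2M (p 0.036) and LOC533051 (p 0.016). The median log2 difference over the MHC probes was 0.00, and over all probes 0.02.

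In the fit without the cow as a block, B2M came nearest to a difference between compartments. It averaged 4.49 ± 0.34 in CAR and 4.69 ± 0.23 in ICAR (SD, n = 16 arrays each), and the arrays overlapped. In the fit without the cow it was lower in CAR by 0.20 log2 units (SE 0.11), with limma's adjusted p at 0.397. Taken within cows as labelled it was lower in CAR in 7 of 8. The exact sign-flip p over cows was 0.0156, not adjusted for the 14 probes. With the cow as a block its adjusted p was 0.175, and without the 4 arrays that went with another number the difference was -0.29 (SE 0.12, adjusted p 0.284). LOC533051 differed by -0.40 (SE 0.42), lower in CAR in 6 of 8 cows as labelled. With the cow as a block its adjusted p was 0.108, below that of B2M. BoLA-DRB3 differed by 0.00 (SE 0.11), and BOLA, the heavy chain probe, had means equal to within the second decimal (SE 0.14). BOLA-DRA differed by -0.12 (SE 0.16), and BOLA-DMA and BOLA-DMB by 0.02 (SE 0.12) and -0.07 (SE 0.11).

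The horns were compared in the same model, since the ipsilateral horn lies on the side of the corpus luteum. None of 14 MHC probes differed between horns at an adjusted p under 0.05 (0% of all probes) or at an unadjusted p under 0.05 (1.36%). The median difference was 0.07 against 0.00 over all probes, with 9 probes above 0 and 5 below. BOLA-DQA1 was higher ipsilaterally by 0.29 (SE 0.32), BOLA-DQA2 by 0.23 (SE 0.21) and BOLA by 0.11 (SE 0.14), each in 6 of 8 cows as labelled. Without the 4 arrays that went with another number the difference of BOLA-DQA2 was 0.30 (SE 0.19). It was 0.46 with the scan session as a block (SE 0.20, unadjusted p 0.031, adjusted p 0.672) and 0.39 without the arrays of slide 1 (SE 0.18, unadjusted p 0.043, adjusted p 0.999). In the model B2M was lower in the ipsilateral horn by 0.08 (SE 0.11). Taken within cows as labelled it was lower there in 7 of 8 (exact sign-flip p 0.125).

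**Figure D5:**
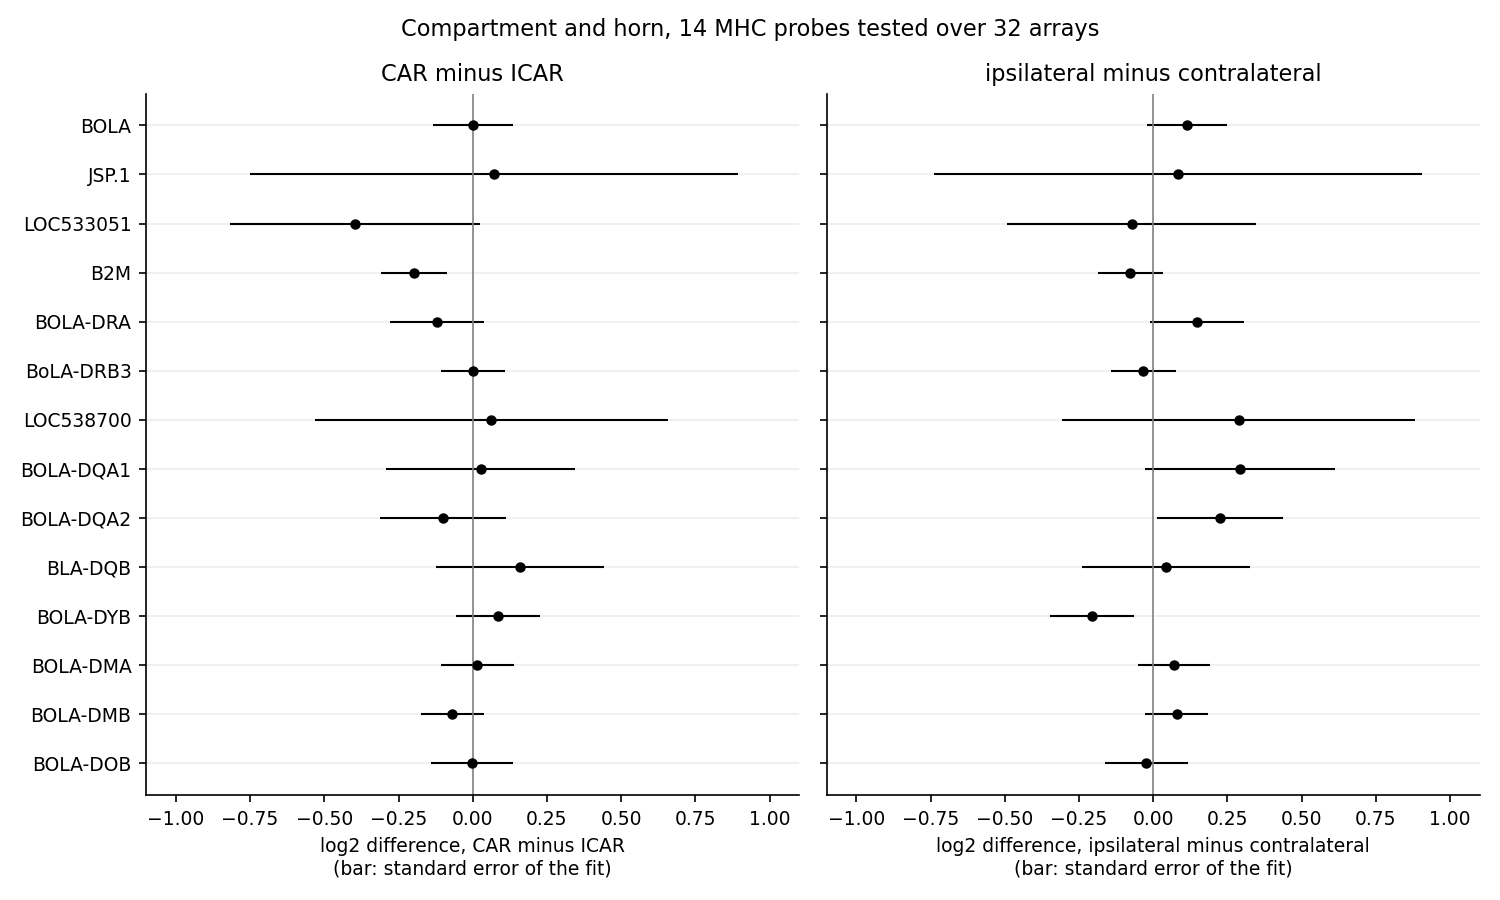
Log2 difference between CAR and ICAR (left) and between the ipsilateral and the contralateral horn (right) for the 14 MHC probes tested over 32 arrays. Points are estimates of the fit without the cow as a block and bars their standard errors. All but B2M on the left have points within 1 standard error of 0, and the bars of JSP.1 and LOC538700 are the longest.

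Genes that supply and load peptides were taken from fixed lists. For class I, 8 of 15 listed genes had a probe, and none passed in either direction at an adjusted p under 0.05 in any comparison. TAP2, a subunit of the peptide transporter, differed between CAR and ICAR by 0.07 (SE 0.37), TAPBP, tapasin, by -0.10 (SE 0.12), and PSMB8, a subunit of the immunoproteasome, by 0.00 (SE 0.15). Between RB and non-RB cows over the whole uterus they differed by 0.51 (SE 0.44), -0.15 (SE 0.19) and 0.13 (SE 0.17). For class II loading and lysosomal processing, 10 of 13 genes had a probe and none passed. CTSS, the cathepsin that trims the invariant chain, differed by -0.14 (SE 0.13) between compartments and by -0.08 (SE 0.19) over the whole uterus. Among regulators and interferon gamma signaling, 8 of 18 genes had a probe and none passed. IRF1, an interferon-induced transcription factor, differed by -0.01 (SE 0.19) between compartments and by -0.31 (SE 0.29) over the whole uterus. At an unadjusted p under 0.05, canx (calnexin) was higher in RB cows in contralateral ICAR by 0.99, CD9 lower in ipsilateral CAR by 0.98 and CTSD (cathepsin D) lower in ipsilateral ICAR by 0.71, all 3 named after their values were seen. Of the MHC receptors and co-receptors 4 of 10 had a probe, 2 of which could be tested on 32 arrays, CD8A and KLRD1. CD8A, a chain of the class I co-receptor, was higher in CAR by 0.27 (SE 0.12, adjusted p 0.253), and is likewise named after its value was seen.

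Markers of cells that carry class II were also compared. None of the 7 macrophage markers tested differed at an adjusted p under 0.05 in any comparison, nor did the 2 of B and plasma cells or the 11 of T and NK cells, the 5 of endothelium, the 4 of smooth muscle and the 1 of red blood cells. The mean level of the macrophage markers on an array ran from -5.03 to -3.03, and over the whole uterus their median difference between RB and non-RB cows was -0.16, beside -0.09 for the MHC probes. It was 0.69 over the 2 B and plasma cell markers, 0.02 over the 11 T and NK cell markers and -0.42 over the 7 epithelial markers. FCER1G, AIF1, MSR1, TYROBP and CD68 were well above background on all 32 arrays, CD14 on 31 and C1QA on 25. Dendritic cells could not be followed, since 1 of 11 listed genes had a probe and it was too dim for the 32 arrays. The tissue carried epithelium (TACSTD1, KRT8, MUC1) and stroma (DCN, LUM, VIM) well above background on every array. Between compartments the 7 epithelial markers had a median difference of -0.35 (CAR minus ICAR) and the 6 stromal markers of 0.35, with none at an adjusted p under 0.05, and their part in the difference of B2M was not tested.

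Genes whose level followed an MHC probe most closely were sought for 3 members, by Pearson correlation over the 32 arrays after the group means were removed. Those nearest to BOLA, the class I heavy chain, were an unnamed transcript AW655967 (0.81) and a gene similar to selenium binding protein (LOC510154, 0.80), followed by the transcripts BE682423 (0.78) and CB458973 (0.77) and by LAPTM4B (0.75), a lysosomal membrane protein. Nearest to BOLA-DMB, the class II probe taken for its mean signal, were MGC127920 (0.89), MGC127173 (0.84), MGC138948 (0.81), MGC133954 (0.80) and BE750603 (0.80), the first of them similar to a mitochondrial ribosomal protein. Nearest to JSP.1, the member with the largest share between cows, were the kinase PIM1 (0.86), LOC505727 (0.81), SPP1 (osteopontin, 0.80), the ribosomal protein RPS12 (0.80) and MGC138959 (0.78). These are descriptions over arrays that share 8 cows.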

How the data were processed

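Single-color Cy3 arrays were scanned and processed by the authors with Agilent Feature Extraction 9.5, and the deposited scanner files hold intensity values, already background-corrected, per probe. The deposited series table holds log2 values of the same arrays, which equal those used here up to a constant per array. The methods scaled arrays and compared groups by an unpaired t-test in GeneSpring. Here log2 intensity minus the log2 of the 75th percentile of each array was used, without outlier spots. Probes that reached well above background on 2 or more of 8 arrays (8 of 32 for comparisons over all arrays), with at least 3 values per group, were tested with limma 3.58.1 in R 4.3.3, with Benjamini-Hochberg adjustment over all probes tested at a threshold of 0.05. An exact permutation test (two-sided), or exact sign flips over 8 cows, was run for single values. The precision is limited by the 4 arrays per group. The MHC probes and the gene lists were chosen with earlier results of these data known. All MHC probes are named, as are CIITA, NLRC5, TAP1, TAP2, TAPBP, PSMB8, PSMB9, CTSS and IRF1 where a probe carried that name (1 further gene of the rule is not reported here), and the 5 probes most like each of 3 members. CIITA, NLRC5, TAP1 and PSMB9 were not analysed here. Same-numbered arrays within RB and non-RB varied together (mean correlation 0.413 and 0.381, over 0.1 in 22 and 21 of 24 pairs). Alternatives covered normalization, background correction, filters, slide and scan session, the cow or number as a block, and leaving out arrays.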

Additional observations from a re-analysis of the deposited data

Results flagged for a closer look

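In each group of 4 arrays, the gap of the highest or lowest array to its nearest neighbor was divided by the range of the group, and ratios over Dixon's critical value were marked. Of 144 groups, 25 were marked (17.4%). The nominal rate of about 1 in 20 holds for independent normal values, and the share over all probes was not computed. Each cow recurs in 4 groups of a probe, so the count is not read as an excess. Of the 25 marks 7 lay on the 4 arrays that went with another number, and 3 belonged to groups with no array well above background.

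For BOLA-DQA, RB 2 stood high in contralateral CAR (0.933), ipsilateral CAR (0.943), contralateral ICAR (0.951) and ipsilateral ICAR (0.953). For BOLA-DQB it stood high in the same order at 0.83, 0.88, 0.948 and 0.947, and non-RB 3 stood low in ipsilateral ICAR at 0.889, where no array was well above background.

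For LOC533051, RB 3 stood low in contralateral CAR (0.84), contralateral ICAR (0.851) and ipsilateral ICAR (0.917), and the array labelled non-RB 1 stood high in ipsilateral ICAR (0.93). For JSP.1, non-RB 3 stood high in contralateral CAR (0.857) and ipsilateral ICAR (0.923). For LOC538700, RB 4 stood high in contralateral ICAR (0.938) and the array labelled non-RB 1 in ipsilateral ICAR (0.901).

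The array labelled non-RB 1 ICAR contralateral stood low for BOLA-DQA1 (0.881) and high for BOLA-DQA2 (0.906), BOLA-DRA (0.866) and BOLA-DYA (0.855). The array labelled non-RB 1 ICAR ipsilateral stood low for BLA-DQB (0.839). BOLA was low in ipsilateral CAR of RB 3 (0.865), B2M low in ipsilateral ICAR of RB 4 (0.854), and BOLA-DYA, not well above background, highest in contralateral CAR of non-RB 2 (0.837).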

How the results depend on the processing

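The count of MHC probes at an adjusted p under 0.05 was 0 in all 9 comparisons under each alternative run, which covered quantile normalization, normexp, the deposited table, both filters, the methods' t-test, slide and scan session as blocks, the arrays left out in turn and the 4 arrays that went with another number. With the replicate number as a block it was 0 as well, at an unadjusted p under 0.05 1 in contralateral CAR and 1 over the whole uterus (BOLA-DYB in both) and 2 between CAR and ICAR. Pairs of equal number between RB and non-RB cows, which are different animals, correlated over 0.1 in 2 or 3 of 4 per compartment (lowest -0.24, highest 0.42), so not all did and the numbers were not taken as a pairing.

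The count over all probes between CAR and ICAR depended on the setting, from 174 to 79 with normexp, 120 without a filter, 250 with the slide and 531 with the scan session as a block, and 0 without the 4 arrays that went with another number. It was 915 without RB 3, 717 without non-RB 2 and 0 when any other number was left out. Over the whole uterus it was 60 when the 32 arrays were taken as independent and 67 with the methods' t-test. In neither did any of the 14 MHC probes tested here reach an adjusted p under 0.05.

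Precision was limited by 4 cows a group, and for BOLA-DYB and LOC538700 by signals close to background on 6 and 9 of 32 arrays.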
